A study of Mus musculus with 41 samples.

Results

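The locus described here is a stretch of mouse chromosome 11, chr11:101300000-101430000 in the mm10 (GRCm38) build, which holds Aoc2, Aoc3 and G6pc. It was chosen because H3K18la in white adipocytes (ADIPO) has one of its strongest restricted peaks there, that is, an ADIPO H3K18la peak that overlaps no H3K18la peak of another cell type. The members were thus chosen by ADIPO H3K18la signal, and those values are given as a description, with no test. Of 545474 peaks in 24 peak lists, 88 overlapped the window by at least 1 bp. The window holds 9 protein-coding genes, of which Aoc2, Aoc3 and G6pc are the subject, and Becn1, Psme3, Aarsd1, Gm27029, Ptges3l and Rundc1 are called neighbours below.

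The profiles come from CUT&Tag, in which an antibody tethers a transposase that cuts and tags the DNA next to a histone post-translational modification (hPTM). The study profiled H3K18la in 8 mouse cell types and tissues, H3K27ac in 5, H3K4me3 in 4 and H3K27me3 in 7, with 41 samples in all. Samples of one cell type and hPTM, 2 in 17 groups and 1 in the other 7, were merged before peaks were called, so that each group is 1 list without replicate error. Beside the culture conditions, the 1 intervention was the injury from which PIM were taken, which applies to its 4 lists.

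ADIPO were nuclei of white fat from 10-week-old AdipoCre-NuTRAP mice, strain C57BL/6 by the labels, caught on streptavidin beads by a nuclear tag that adiponectin-Cre switches on. GAS was whole gastrocnemius muscle of C57BL/6 mice 8 to 12 weeks old and so holds fat cells and vessels beside muscle fibres. MB were C57BL/6 primary myoblasts and MT were myotubes after 3 days of differentiation. BMDM were macrophages grown from C57BL/6 bone marrow, and PIM were macrophages sorted from C57BL/6 muscle 2 days after hind-limb ischemia. The stem cells were of the E14 line with LIF, mESC-ser being grown with serum and mESC-2i with 2i. They were processed as whole cells and all others as nuclei. H3K4me3 of ADIPO, MB, MT and BMDM, H3K27me3 of ADIPO, and H3K27ac of MB, MT and mESC-2i were not analysed here.

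H3K27ac marks active promoters and enhancers, H3K4me3 marks promoters, and H3K27me3 is the Polycomb mark of silenced genes. H3K18la is a lactylated lysine of histone H3 and links lactate, a product of glycolysis, to chromatin. Aoc3 encodes a copper-containing amine oxidase of the cell surface, also called vascular adhesion protein, which is abundant in adipocytes, endothelium and smooth muscle. Aoc2 is its neighbour and close relative, known as the retina-specific amine oxidase. G6pc encodes the catalytic subunit of glucose-6-phosphatase, the last step of glucose release by liver and kidney.

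Aoc2, Aoc3 and G6pc lie in this order on the plus strand. Aoc2 (ENSMUSG00000078651.8) occupies chr11:101325063-101329702 and Aoc3 (ENSMUSG00000019326.14) chr11:101330605-101341938, with 902 bp between them. G6pc (ENSMUSG00000078650.2) occupies chr11:101367561-101377903, and 25622 bp without a protein-coding gene separate it from the end of Aoc3.

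The sequences that matter most to the peak pattern are the 300 bases around the maxima of the ADIPO H3K18la peaks over Aoc3, upstream of G6pc and downstream of G6pc, and the G6pc promoter, which the ADIPO peaks leave out. The first 3 were read from the RefSeq copy of the GRCm38 genome, and the promoter from RefSeq's promoter table of the same build; 2 of the 3 genes, Aoc2 and G6pc, had an entry there. All are on the plus strand. Capitals mark matches on either strand to 5 patterns. The first is AGGTCA, the core that many nuclear receptors bind. The second is that core repeated in the same direction 1 base apart, the element of PPARG with RXR. The third, TTGCNNCAA, is bound by C/EBP factors. The fourth, TGACGTCA, is that of the cAMP-responsive factor CREB, and the fifth is the TATA box, TATAAA.
Aoc3 peak maximum, chr11:101332527-101332826: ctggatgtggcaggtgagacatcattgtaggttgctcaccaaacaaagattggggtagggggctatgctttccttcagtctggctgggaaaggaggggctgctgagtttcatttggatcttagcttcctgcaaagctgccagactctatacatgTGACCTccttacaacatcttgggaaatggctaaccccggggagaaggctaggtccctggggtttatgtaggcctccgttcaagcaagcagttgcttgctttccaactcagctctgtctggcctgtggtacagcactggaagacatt
Upstream peak maximum, chr11:101364458-101364757: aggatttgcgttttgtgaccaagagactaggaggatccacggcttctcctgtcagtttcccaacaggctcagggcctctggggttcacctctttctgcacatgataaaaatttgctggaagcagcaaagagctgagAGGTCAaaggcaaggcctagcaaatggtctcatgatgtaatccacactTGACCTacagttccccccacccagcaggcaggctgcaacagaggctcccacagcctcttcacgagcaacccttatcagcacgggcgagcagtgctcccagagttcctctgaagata
G6pc peak maximum, chr11:101379075-101379374: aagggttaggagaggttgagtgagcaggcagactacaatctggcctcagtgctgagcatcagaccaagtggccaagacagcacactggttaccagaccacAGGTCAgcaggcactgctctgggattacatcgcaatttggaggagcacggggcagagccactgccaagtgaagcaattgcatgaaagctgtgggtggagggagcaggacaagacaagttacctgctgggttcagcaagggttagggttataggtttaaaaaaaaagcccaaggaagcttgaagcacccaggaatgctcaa
G6pc promoter, chr11:101367466-101367765: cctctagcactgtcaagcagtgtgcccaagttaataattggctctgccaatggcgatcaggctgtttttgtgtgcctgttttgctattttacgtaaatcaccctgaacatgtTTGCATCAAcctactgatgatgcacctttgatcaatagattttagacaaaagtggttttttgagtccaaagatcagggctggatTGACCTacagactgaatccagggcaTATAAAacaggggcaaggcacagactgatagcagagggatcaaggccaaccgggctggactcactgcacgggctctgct

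The 3 windows around maxima shared the AGGTCA core, with 1 match at the Aoc3 maximum, 2 at the upstream maximum and 1 at the G6pc maximum. The core stood in 21% of the 28752 windows of this length around ADIPO H3K18la maxima, so that a single match is common. None of the 3 windows held the repeated core, which 0.08% of such windows held, the C/EBP motif (2.42%), the CREB motif (0.901%) or the TATA box (9.34%). The G6pc promoter held 1 match each to the AGGTCA core (16.3% of the 32851 promoters of the table), the C/EBP motif (2.08%) and the TATA box (13.6%), the last 29 bases before the RefSeq start. RefSeq places that start 155 bp after the GENCODE start from which distances are given here. The Aoc2 promoter, chr11:101324813-101325112, matched none of the 5 patterns. Of the window around the G6pc maximum, 9.67% of bases are soft-masked as repeats in the reference, and none of those around the other maxima, against a median of 7.33% over all such windows.

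In ADIPO, H3K18la covered 65098 bp of the window, or 50.1%, in 11 peaks, and H3K27ac covered 45463 bp, or 35.0%, in 12. The H3K18la lists of the other cell types covered from 0 to 27944 bp. Among the 20249 tiles of this length that fill the genome, 0.207% were covered at least as much by ADIPO H3K18la and 0.242% by ADIPO H3K27ac, the first of which is what the locus was chosen for. From the start of the peak over Aoc3 to the end of the next peak after the one that runs past G6pc, 76980 bp, ADIPO H3K18la covered 77.3% in 7 peaks and ADIPO H3K27ac 46.3%. In the same stretch mESC-ser H3K18la covered 12.3%, mESC-2i 9.05% and GAS 2.25%, and the H3K18la lists of MB, MT, BMDM and PIM held no peak. The map of called peaks shows this stretch as a near-continuous band in the ADIPO H3K18la row. The ADIPO H3K27ac row is broken by wide gaps, and its peaks covered 0% of the G6pc gene body.

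**Figure D1:**
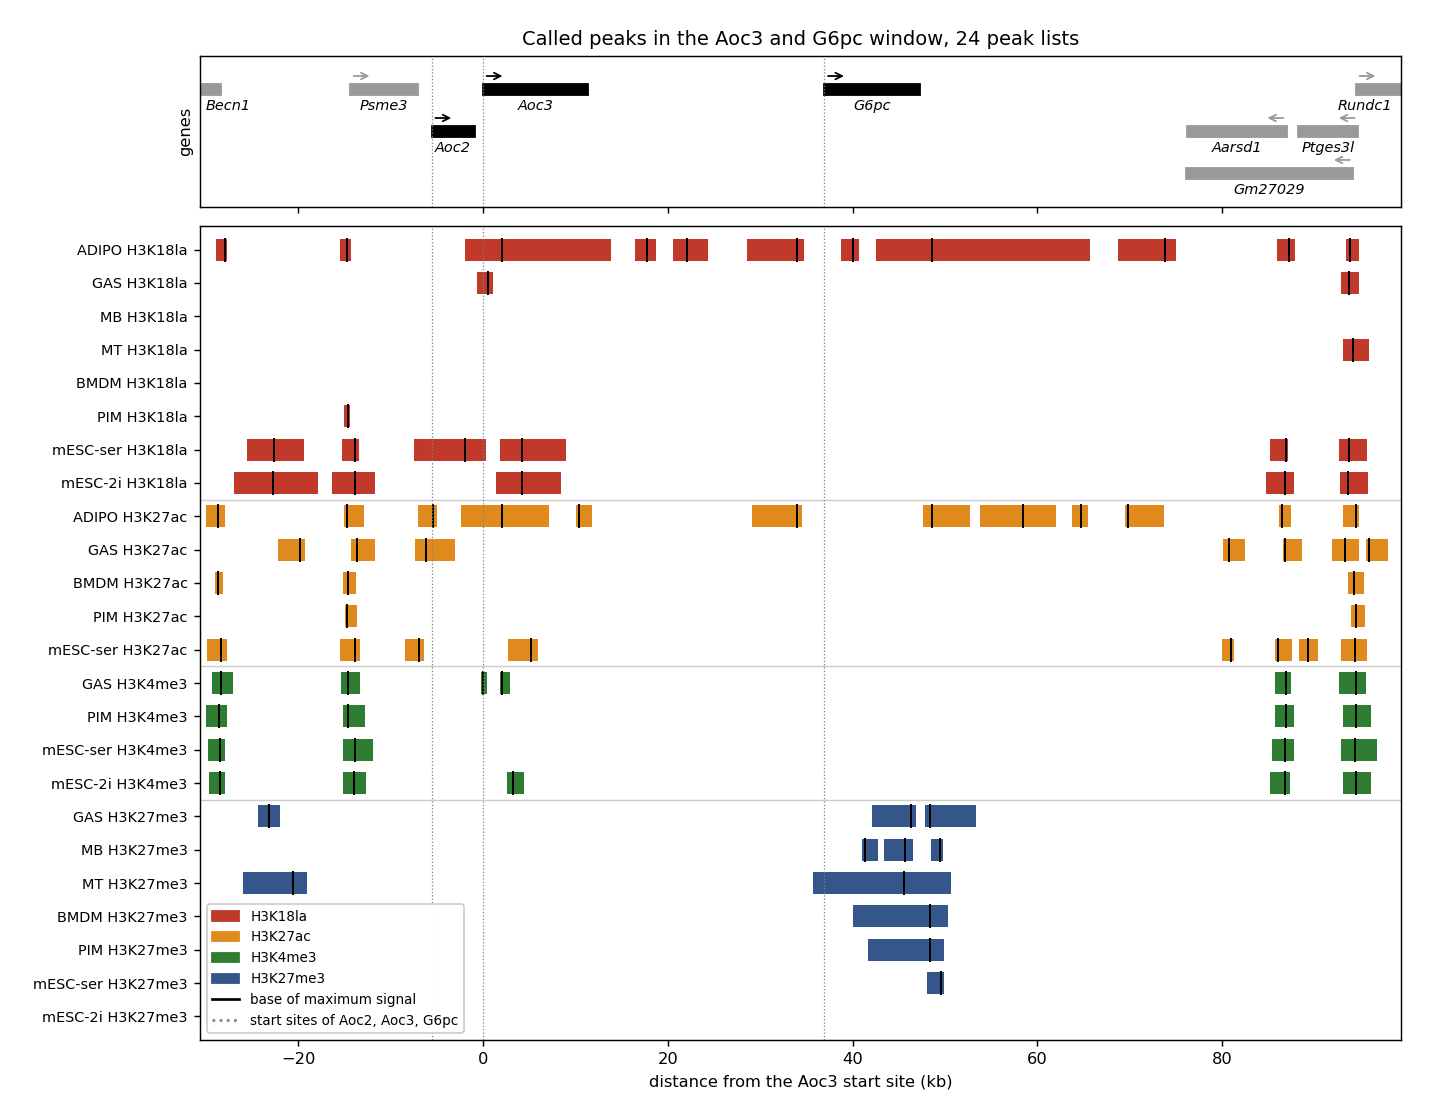
Called peaks of the 24 lists along the window; x is the distance from the Aoc3 start site in kb, each row is 1 pooled list, boxes are peaks coloured by hPTM, black ticks are their bases of maximum signal and dotted lines the starts of Aoc2, Aoc3 and G6pc. The ADIPO rows carry peaks from Aoc3 to past G6pc, the H3K27me3 peaks of 6 cell types gather over and behind G6pc, and the H3K4me3 rows follow the neighbours' promoters.

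Peaks in the window were present in 21 of the 24 lists. Across all lists 37.3% of genome tiles of this length held a peak. The 3 lists without one were MB H3K18la, BMDM H3K18la and mESC-2i H3K27me3. Of the 19 H3K4me3 peaks, 16 covered a start site of a neighbour and 1 that of Aoc3. Of the 11 H3K27me3 peaks, 9 had G6pc as the nearest protein-coding start site. Of the 26 H3K18la peaks, 12 covered only neighbours' start sites and 3 covered one of Aoc2 or Aoc3. Another 7 covered no start site and were nearest to a member gene. Of the 32 H3K27ac peaks, 16, 3 and 6 fell in these classes. Over all hPTMs, 31 of the 88 peaks were nearest to Aoc2 (4), Aoc3 (11) or G6pc (16).

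The neighbours carried active marks in most cell types. All 6, among them Becn1, an autophagy gene, and Psme3, a proteasome activator subunit, had H3K4me3 over a start site in 4 of 4 lists. Psme3, Ptges3l and Rundc1 also had H3K27ac there in 5 of 5. H3K27me3 came within 2000 bp of no neighbour's start site in 7 lists.

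A promoter is counted here as marked where a peak overlapped the 2000 bp on either side of an annotated start site. For H3K18la this held for 44.7% of the 21755 protein-coding genes in ADIPO, 36.1% in GAS, 11.1% in MB, 34.8% in MT, 18.5% in BMDM, 37.8% in PIM, 33.4% in mESC-ser and 37.8% in mESC-2i. For H3K27ac the shares were 46.1% in ADIPO, 47% in GAS, 34% in BMDM, 48.8% in PIM and 40.2% in mESC-ser. H3K4me3 marked 64.2% in GAS, 59.4% in PIM, 48.8% in mESC-ser and 61.8% in mESC-2i. H3K27me3 marked 23.9% in GAS, 12.5% in MB, 20.1% in MT, 19.2% in BMDM, 26.4% in PIM, 27% in mESC-ser and 22.5% in mESC-2i. Against these shares, Aoc3 was marked in 6 of the 24 lists, Aoc2 in 4 and G6pc in 2. With the 5000 strongest peaks of each list the counts were 3 for Aoc3, 0 for Aoc2 and 1 for G6pc, and with lists reduced to equal called bases they were 2, 1 and 0. In H3K4me3 the 3 genes had 1 call between them, that of Aoc3 in GAS, as the plot of promoter calls shows.

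**Figure D2:**
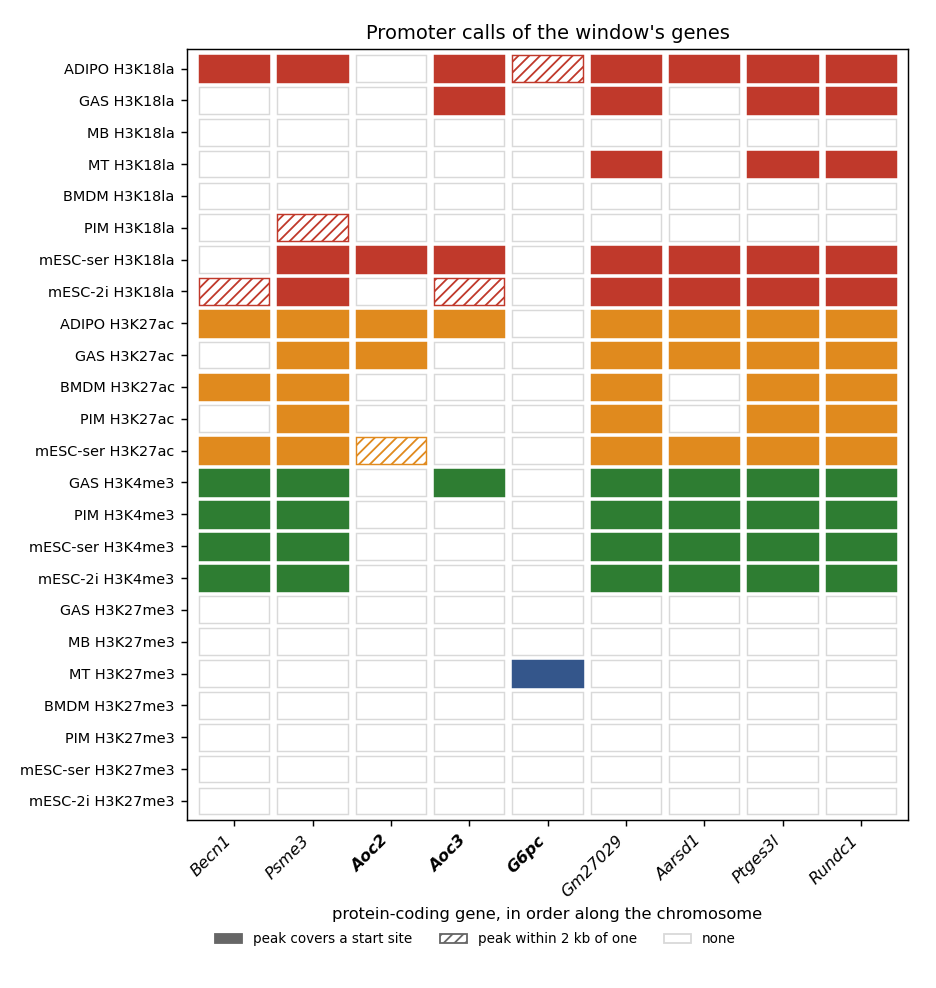
Promoter calls of the 9 protein-coding genes of the window (x, in chromosome order, with Aoc2, Aoc3 and G6pc in bold) in the 24 pooled lists (y); full boxes mean that a peak covered a start site, hatched boxes that one lay within 2 kb, and empty boxes that none did. The neighbours are filled throughout the H3K4me3 rows, Aoc3 is filled in 1 of these 4 rows, and G6pc is filled only in MT H3K27me3.

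Aoc3 was the member with the fullest set of active marks. In ADIPO the H3K18la peak chr11:101328629-101344512, 15884 bp wide, covered all of Aoc3 and the last 1074 bp of Aoc2. It ranked 343rd of 28752 peaks by total signal (the coverage summed over the peak), within the top 1.19%, and in the top 0.664% by width, but in the top 9.59% by maximum signal and 13.1% by signal per base. In ADIPO H3K27ac the peak chr11:101328268-101337743 ranked 111th of 23089 by total signal, 51st by maximum signal, 258th by width and 338th by signal per base. Together with a weaker peak, chr11:101340672-101342389 (top 69.8% by total signal), it covered 74.2% of the gene. The maxima of the H3K18la peak and of the larger H3K27ac peak fell on the same base, chr11:101332677, in the first intron 2072 bp from the start.

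Such an agreement was not rare. Over the 18669 ADIPO H3K18la peaks that overlapped an H3K27ac peak, the maxima lay a median of 120 bp apart, within 1 bp in 9.44% and within 100 bp in 46.0%. At the upstream peak the distance was 14 bp and at the G6pc peak 1 bp.

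Outside ADIPO, H3K18la at Aoc3 was found in GAS and in both stem cell lists. The GAS peak, chr11:101329980-101331711, was 1732 bp wide, covered the start site and ranked within the top 57% of its list. GAS also had the 1 H3K4me3 peak over the Aoc3 start, chr11:101330336-101331089 (top 60.7%), and a second inside the gene at chr11:101332494-101333516 (top 60.8%). The maximum of the latter lay 20 bp from that of ADIPO H3K18la. GAS H3K27ac had no peak over Aoc3.

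GAS is a mixed tissue. Among 8 adipocyte marker promoters, GAS H3K18la marked Lipe, Pparg, Fabp4 and Lpl but not Adipoq, Plin1, Cidec or Lep. It marked 3 of 3 endothelial (Pecam1, Cdh5, Kdr) promoters, 1 of 3 of smooth muscle (Acta2) and 3 of 3 of fibroblasts and progenitors (Pdgfra, Col1a1, Dpt), beside 36.1% of all genes. GAS H3K4me3 marked 5 of the 8 adipocyte promoters, with Plin1 added to those 4, and all 3 of the endothelial, smooth muscle and fibroblast lists (Myh11 and Tagln beside Acta2 in smooth muscle), beside 64.2% of all genes. In sorted PIM, H3K4me3 marked the same 5 adipocyte and 3 endothelial promoters, beside 59.4% of all genes. It marked 1 of 3 smooth muscle and 2 of 3 fibroblast promoters. PIM H3K18la marked 5 of the 8 adipocyte promoters, Adipoq included, beside 37.8% of all genes. The part of adipocytes, endothelium, smooth muscle and fibroblasts in the GAS peaks at Aoc3 was not tested.

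In mESC-2i the H3K18la peak chr11:101332042-101339010 covered 61.5% of Aoc3 and began past its start site, and in mESC-ser the peak chr11:101332398-101339572 lay at nearly the same place. They ranked within the top 29.7% and 13.1% of their lists. Their maxima were 7 bp apart and 2182 and 2175 bp away from the ADIPO maximum, so that the gene carried H3K18la in stem cells too, at another base of the gene body. A second mESC-ser peak, chr11:101323117-101330935, covered all of Aoc2 and the Aoc3 start but was shallow, in the top 99.4% by signal per base. In mESC-ser an H3K27ac peak covered 29.1% of Aoc3 (top 9.88% by total signal), and in mESC-2i an H3K4me3 peak covered 15.9% (top 71.8%). The adipocyte label thus fits Aoc3 only in part. The stem cell lists marked 3 of 3 stem cell promoters (Pou5f1, Nanog, Sox2) with H3K18la, and each marked 1 of the 8 adipocyte promoters, Lipe in mESC-ser and Lpl in mESC-2i. Of all genes, H3K18la marked 33.4% in mESC-ser and 37.8% in mESC-2i.

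Aoc2 had fewer calls. Its start site was under H3K27ac in ADIPO, chr11:101323569-101325634, and in GAS, chr11:101323237-101327621, and under H3K18la in mESC-ser. The ADIPO peak was weak for its list, in the top 76% by total signal, and the GAS peak stood in the top 46.5%. A mESC-ser H3K27ac peak ended 896 bp before the Aoc2 start. No ADIPO H3K18la peak covered the Aoc2 start, and no H3K4me3 or H3K27me3 peak touched the gene.

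The strongest peak of the locus belonged to no start site. The ADIPO H3K18la peak chr11:101373116-101396294 was 23179 bp wide, began 5555 bp after the G6pc start, covered the last 46.3% of the gene and ran 18391 bp past its end. Its total signal of 2058205 was 41st of 28752 (top 0.143%), its maximum of 1563 was 36th and its width 55th, while its signal per base was 264th (top 0.918%). It ranked 2nd among the 8421 restricted peaks. The restricted peak just above it was nearest to Mylk, with 2282113. The restricted peak just below, with 1835004, covered a start site of Pex11a and was also the peak that marked the Plin1 promoter. The maximum, at chr11:101379225, lay 1322 bp past the end of G6pc and was 17.6 times the peak's mean signal per base, a ratio exceeded by 0.0104% of the list, whose median was 3.54.

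ADIPO H3K27ac covered 65.0% of that peak in 3 pieces. The first, chr11:101378278-101383307, had a maximum of 1183, 37th of its list. The second, chr11:101384342-101392611, ranked in the top 2.28% by total signal, and the third, chr11:101394348-101396122, in the top 44.1%. H3K4me3 and the H3K18la lists of the other 7 cell types held no peak there.

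The 4 strongest restricted peaks all overlapped ADIPO H3K27ac, as did 48.4% of the restricted peaks and 100% of the 50 strongest. Over all ADIPO H3K18la peaks the share was 64.9%. The 50 strongest were also wider, with a median of 13464 bp against 1676 bp for all restricted peaks. In the window 7 of the 11 ADIPO H3K18la peaks were restricted, beside 29.3% of the whole list, and 4 of these 7 overlapped H3K27ac. The restricted ones included the upstream peak chr11:101359216-101365379, whose end lay 2182 bp before the G6pc start. Its total signal was in the top 4.19%, and ADIPO H3K27ac covered 88.6% of it. The 4 shared peaks were those over Psme3, Aoc3, Aarsd1 and the Ptges3l and Rundc1 pair.

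**Figure D3:**
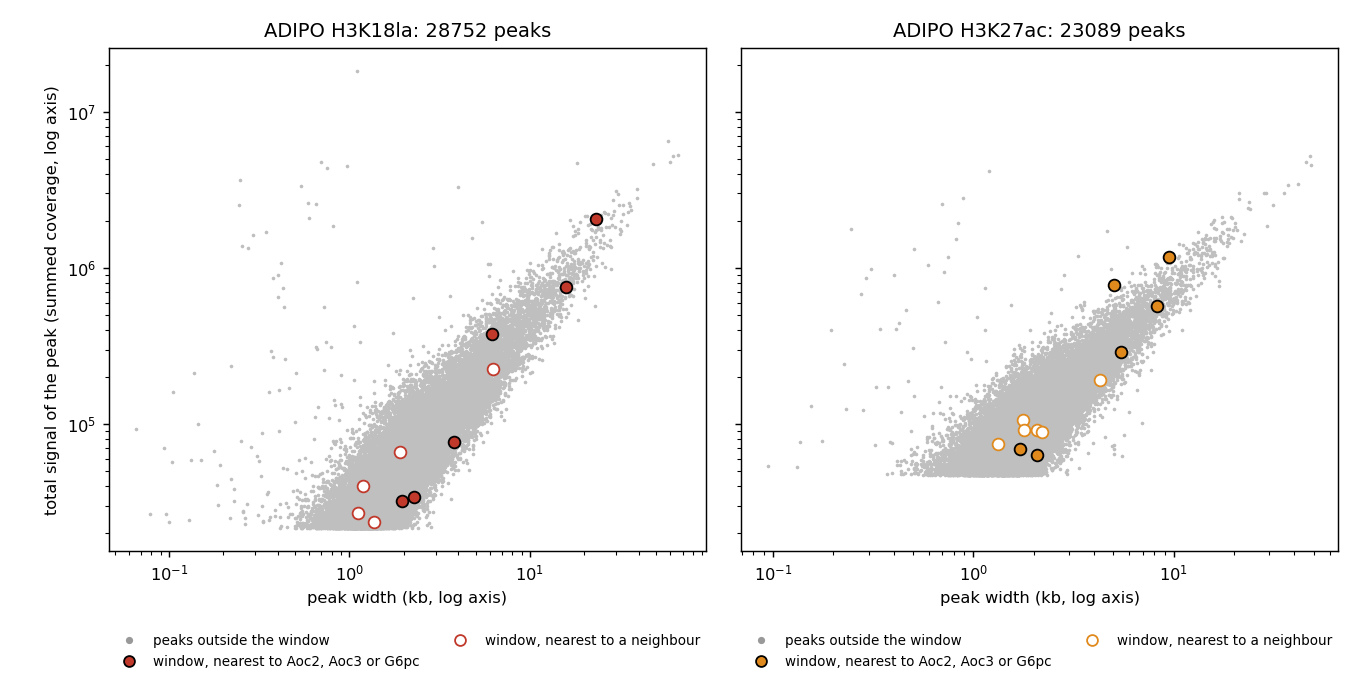
Width (kb, log axis) and total signal (summed coverage, log axis) of every ADIPO peak, H3K18la at left and H3K27ac at right; grey points are the peaks outside the window, filled circles window peaks nearest to Aoc2, Aoc3 or G6pc, and open circles window peaks nearest to a neighbour. The G6pc peak (23179 bp, 2058205) and the Aoc3 peak (15884 bp, 752930) stand at the wide and strong end at left. The neighbours' peaks at left lie in the main cloud, apart from a wider peak nearest to Aarsd1 (6255 bp, 226549).

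The G6pc promoter itself was almost bare. ADIPO H3K18la reached within 2000 bp of the start through a weak peak inside the gene, chr11:101369386-101371352 (top 73.7%), and covered no base of the start. With 1000 bp on either side in place of 2000 bp that call was lost. No H3K27ac or H3K4me3 list had a peak within 2000 bp. In position, the peaks around G6pc thus lay on both sides of the promoter and over the 3′ end of the gene. The distance from the maximum of the largest one was 11664 bp to the G6pc start, 38390 bp to that of Aarsd1 and 48620 bp to that of Aoc3. Peak lists do not tell which gene such a region acts on.

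Outside ADIPO the G6pc stretch carried H3K27me3. H3K27me3 of ADIPO was not analysed here, so ADIPO cannot be set against the other cell types for this hPTM. H3K27me3 covered part of G6pc with 2000 bp on each side in 6 of 7 lists: 43.3% in GAS, 40.1% in MB, 94.8% in MT, 64.5% in BMDM, 53.0% in PIM and 8.89% in mESC-ser. In mESC-2i no base was covered. The number depended on list size: with the 5000 strongest peaks of each list 2 lists had coverage, MT and BMDM, and with lists reduced to equal called bases 1 had, MB, the smallest list, which that step leaves whole. The share of all protein-coding genes with any H3K27me3 in that span was 29.5% in GAS, 16% in MB, 24.6% in MT, 22.1% in BMDM, 30.4% in PIM, 31.6% in mESC-ser and 28% in mESC-2i. Coverage as high as that of G6pc was found in 8.11% of genes in GAS, 4.29% in MB, 2.83% in MT, 5.64% in BMDM, 6.94% in PIM and 19.8% in mESC-ser. MT stood highest and its peak, chr11:101366309-101381285, was the 1 H3K27me3 peak over a member's start site.

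**Figure D4:**
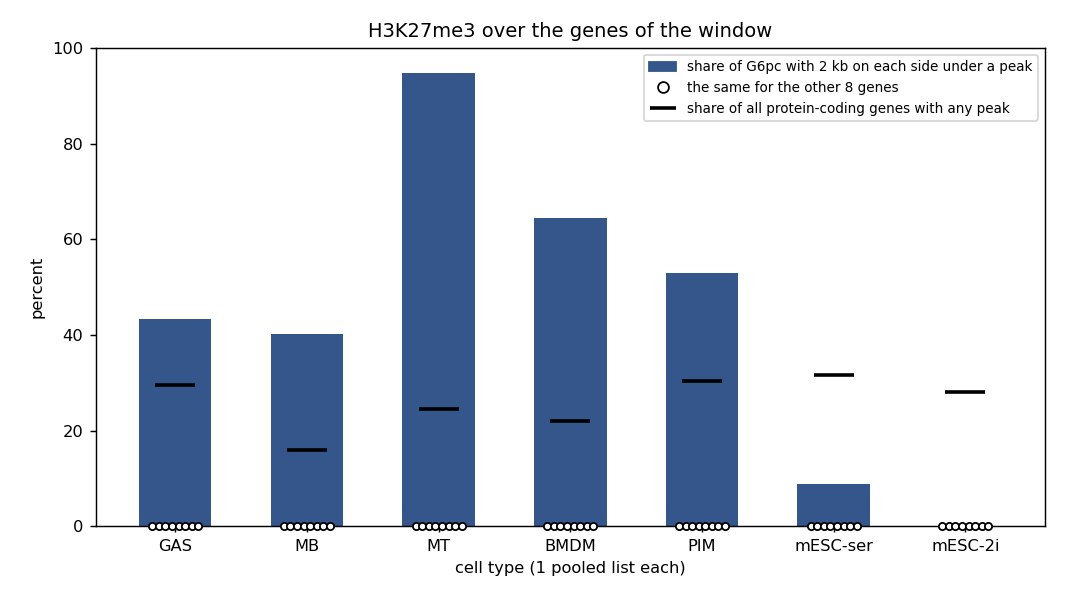
H3K27me3 over the genes of the window in 7 cell types (x, 1 pooled list each); bars give the share (percent) of G6pc with 2 kb on each side under a peak, open circles the same share of the other 8 protein-coding genes, and black dashes the share of all protein-coding genes with any H3K27me3 in that span. The bars reach from 0 in mESC-2i to 94.8 in MT, and all open circles lie at 0.

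Aoc2, Aoc3 and the 6 neighbours had no H3K27me3 in this span in any of the 7 lists. Averaged over Aoc2, Aoc3 and G6pc, coverage was 14.5 percentage points above that of the 6 neighbours (± 10.8, SD, n = 7 cell types), higher in 6 of 7, and G6pc alone gave the whole of that difference. A two-sided exact permutation test that flips the sign of each cell type gave p = 0.03125, but with the neighbours at 0 in every list the difference could not be negative and the p follows from the number of lists with any coverage of G6pc. No call is therefore made from it. With the 2000 bp around start sites in place of gene bodies the difference was 3.87 points.

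The H3K27me3 peaks and the ADIPO H3K18la peak met over the same ground. H3K27me3 of GAS covered 42.6% of the ADIPO G6pc peak, MT 35.2%, BMDM 33.5%, PIM 31.8%, MB 20.3% and mESC-ser 7.92%. With the 5000 strongest peaks of each list the overlap was left in MT and BMDM, and with equal called bases in MB, so that the share covered in any cell type went from 46.7% to 35.2% and 20.3%. In GAS, BMDM and PIM the H3K27me3 maxima lay 210, 214 and 221 bp from the ADIPO H3K18la maximum. By maximum signal these peaks stood in the top 22.1%, 52.1% and 76.2% of their lists. How often such maxima lie this close over all peaks was not measured. In MB, MT and mESC-ser the nearest maxima were 826, 3038 and 967 bp away. An ADIPO H3K18la peak with H3K27me3 in 6 or 7 lists was infrequent, 0.988% of the list and 1.52% of the restricted peaks, but 14% of the 50 strongest restricted peaks, whose median width of 13464 bp compares with 1676 bp for all restricted ones. The Aoc3 and upstream peaks overlapped H3K27me3 in 0 of 7 lists.

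Outside ADIPO no peak nearest to a member gene ranked above the top 9.88% of its list by total signal, that of mESC-ser H3K27ac in Aoc3, as the plot of ranks shows. The strongest H3K27me3 peak over G6pc ranked in the top 10.4% in MT, 21.5% in GAS, 27.6% in BMDM, 44.1% in MB and 44.3% in PIM. Past the end of the gene, GAS had a further one in the top 18.3%, MB one in the top 92.7% and mESC-ser its only one, in the top 97.9%. Across the H3K4me3 lists the best peak of the window belonged to the Ptges3l and Rundc1 start region in GAS (top 5.16%), mESC-ser (9.51%) and mESC-2i (9.49%) and to Psme3 in PIM (27.3%).

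**Figure D5:**
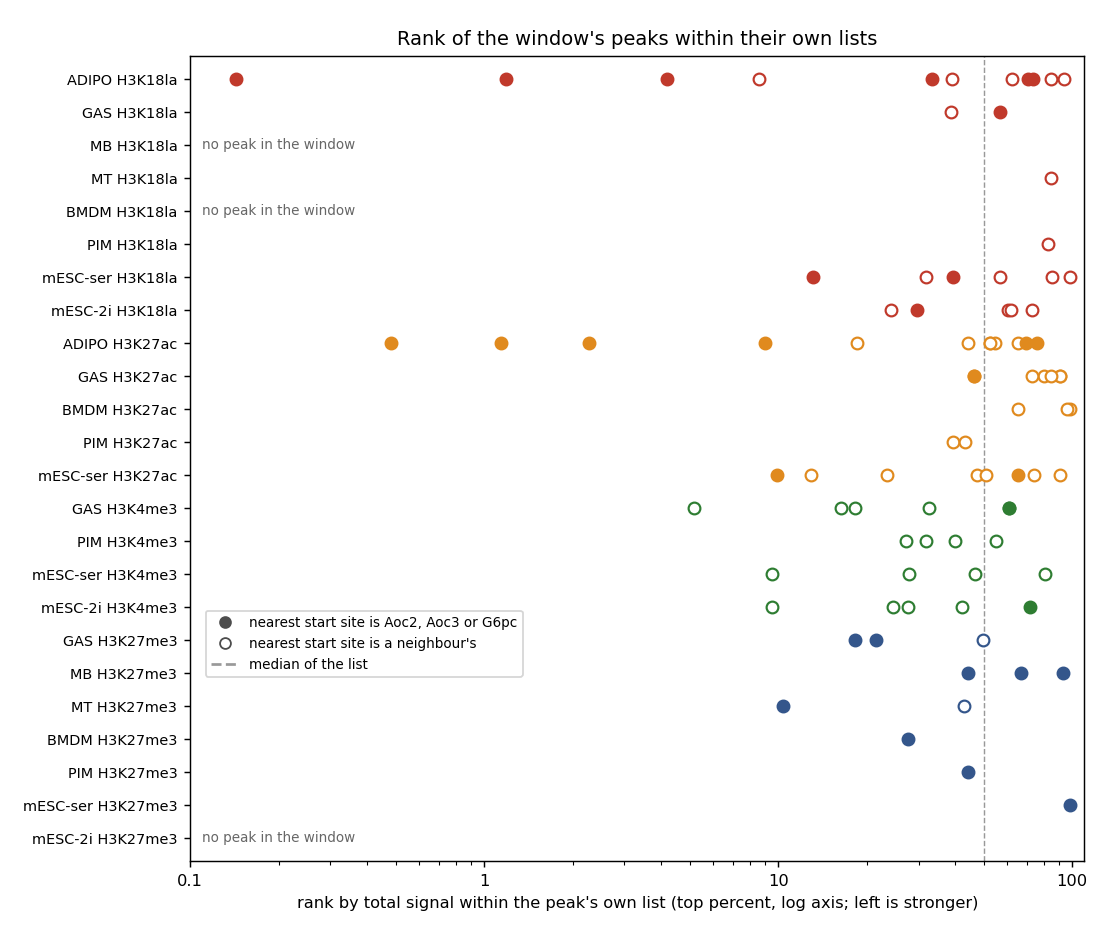
Rank of each of the 88 window peaks by total signal within its own list (x, top percent on a log axis, stronger to the left) in the 24 pooled lists (y); filled circles are nearest to the start of Aoc2, Aoc3 or G6pc, open circles to that of a neighbour, and the dashed line is the median of a list. ADIPO H3K18la and H3K27ac reach the top 0.143% and 0.481%, and no other list has a window peak above the top 5.16%.

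In the ADIPO H3K18la list, the ratio of observed to expected CpG was 0.224 in the Aoc3 peak, 0.211 in the upstream peak and 0.171 in the G6pc peak, against a median of 0.237 over the list, and was above that of 45.3%, 40.3% and 24.3% of the list. The peaks over the Becn1, Psme3, Aarsd1 and Rundc1 start sites had ratios of 0.578 to 0.705, above those of 86.8% to 94.6% of the list. Repeats made up 42.6% of the G6pc peak, 28.9% of the Aoc3 peak and 15.9% of the median peak.

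Other amine oxidases and genes of gluconeogenesis put the 2 genes in context. In ADIPO H3K18la 6 of 10 amine oxidase promoters were marked, Aoc3 among them, beside 44.7% of all genes. The peak at Loxl1, a lysyl oxidase of elastic fibres, came next in rank (top 1.84%, against 1.19% for Aoc3). Maoa and Maob, the mitochondrial monoamine oxidases, had peaks in the top 52.9% and 40.2%. Aoc1, Aoc2, Loxl2 and Loxl4 were not marked. ADIPO H3K27ac marked 7 of the 10, with Aoc3 first, beside 46.1% of all genes. Outside ADIPO, H3K18la and H3K4me3 of GAS each marked 8 of the 10, Aoc3 included, beside 36.1% and 64.2% of all genes. The other lists of the 3 active hPTMs marked 0 to 5, beside 11.1% (MB H3K18la) to 61.8% (mESC-2i H3K4me3) of all genes.

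Of 9 genes of the glucose-6-phosphatase system and gluconeogenesis, ADIPO H3K18la marked 6, beside 44.7% of all genes, with G6pc counted through the weak peak that is lost at 1000 bp. Pcx, which makes oxaloacetate from pyruvate, ranked highest (top 0.0661%), followed by Pck1, the cytosolic enzyme that turns oxaloacetate into phosphoenolpyruvate (top 0.501%), and Slc37a4, the glucose-6-phosphate transporter (top 8.27%). ADIPO H3K27ac marked 3, Pcx, Pck1 and Slc37a4, beside 46.1% of all genes, and not G6pc, G6pc2 or G6pc3. Outside ADIPO the lists of the 3 active hPTMs marked 0 to 5 of the 9, and none of them G6pc. The lists with 5 were H3K4me3 of GAS, PIM and mESC-2i, beside 64.2%, 59.4% and 61.8% of all genes. The list with 0 was MB H3K18la, beside 11.1%. H3K27me3 lay at the G6pc promoter in 1 list, at that of Pck1 in 3, at that of G6pc2 in 3 and at that of Fbp1, fructose bisphosphatase, in 6. It lay at that of Pcx in 2, at that of Fbp2 in 1 and at those of G6pc3, Slc37a4 and Pck2 in 0. Per list, H3K27me3 marked 12.5% (MB) to 27% (mESC-ser) of all genes.

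The ADIPO lists carried the marks of adipocytes. All 8 adipocyte promoters (Adipoq, Plin1, Cidec, Lipe, Pparg, Fabp4, Lep and Lpl) were marked by both H3K18la and H3K27ac, with H3K18la peaks between the top 0.188% (Plin1) and 8.14% (Pparg). Of all genes, 44.7% were marked by ADIPO H3K18la and 46.1% by ADIPO H3K27ac. H3K18la marked 0 of 3 endothelial, 0 of 3 mesothelial, 1 of 3 smooth muscle (Myh11) and 1 of 4 macrophage promoters (Cd68). It also marked 1 of 4 muscle (Acta1), 2 of 3 fibroblast (Col1a1, Dpt) and 1 of 5 liver and kidney promoters (Apoa1). ADIPO H3K27ac marked 3 of 3 smooth muscle promoters, 2 of 3 fibroblast promoters (Pdgfra, Dpt) and 0 of 3 endothelial ones. It marked 0 of 3 mesothelial, 1 of 4 macrophage (Cd68), 1 of 4 muscle (Acta1) and 1 of 5 liver and kidney promoters (Apoa1). Smooth muscle is also known to express Aoc3, and its part in the ADIPO peaks was not tested.

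Promoter patterns most like that of Aoc3 were sought over the 24 lists, scoring each promoter by the percentile of its strongest peak. They were those of Sap25 and Irs3, which adjoin each other on chromosome 5 (Pearson's r = 0.958 for both), then Mmrn2 and Sncg, which adjoin on chromosome 14 (r = 0.902), and Ptprcap (r = 0.892). For G6pc the closest was Cmtm2a (r = 0.996), marked like it in ADIPO H3K18la and MT H3K27me3, followed by genes marked in MT H3K27me3 only (r = 0.959), such as Gzmf. These values describe lists that share cell types and rest, for G6pc, on 2 marked lists.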

How the data were processed

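CUT&Tag peak lists of 41 mouse samples in 24 groups were used. Per the study's methods, reads were trimmed with Trim Galore 0.6.6 and aligned to mm10 with Bowtie2 2.4.4, coverage was made with SAMtools 1.13 and bedtools 2.30, samples of a group were merged, and peaks were called with SEACR 1.3, stringent, keeping the top 1% of regions. Handling of duplicate reads is not given in the sources used here. The deposited files hold, per peak, the total and the maximum signal (unscaled coverage, whole numbers), as made by the authors. Because it is not scaled between lists, signal was compared only as a rank within its list. Lists held 11002 to 36813 peaks over 22.6 to 197 Mb. Read depth per library was not used here; by the study's quality summary, one ADIPO H3K27ac library was far shallower than the other.

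Peaks on the 19 autosomes and X were read with Python 3.11.15 and numpy 2.4.6 and set against GENCODE M21 genes (GRCm38), counting an overlap of 1 bp. The members, gene lists and tests were chosen with earlier results of these data known. Genes named are the members, all protein-coding genes of the window, the fixed lists, and the 5 promoters most like Aoc3 and G6pc. H3K27me3 coverage was compared by an exact sign-flip permutation test over cell types, the unit, some of which are related, from which no call is made because the neighbouring genes stood at 0 in every list; interval arithmetic and test were checked on simulated data.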

Additional observations from a re-analysis of the deposited data

How the results depend on the processing

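No paired analysis was possible because samples of a group were merged before peak calling; for the same reason no replicate could be left out. Promoter calls of the 3 genes, 12 over the 24 lists, became 4 with the 5000 strongest peaks of each list, 7 with peaks at or above the median, 3 with lists cut to the called bases of the smallest list of their hPTM, and 7 when 50% of the 4-kb span had to be covered. Lists with a peak in the window fell from 21 to 10 with the 5000 strongest peaks and to 10 with equal called bases. The G6pc peak went from 41st to 264th when ranked by signal per base. The H3K27me3 difference, 14.5 points, whose p depends only on the number of lists with coverage, ranged from 11.7 to 16.9 points when each cell type was left out (exact p from 0.03125 to 0.0625). It was 3.87 points around start sites (exact p = 1), 7.59 with the 5000 strongest peaks (exact p = 0.5), 1.91 with equal called bases (exact p = 1) and 19.7 in the 5 cell types processed as nuclei (exact p = 0.0625, the smallest that 5 can give). Fewer peaks enter under the stricter limits by construction. How much sampling error moves peak edges could not be measured from merged lists.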

Other observations

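Between Becn1 and Psme3 the stem cells had an H3K18la region that ADIPO lacked. The mESC-2i peak chr11:101303614-101312696 was in the top 24.2% of its list by total signal and the mESC-ser peak chr11:101305053-101311238 in the top 31.7%. By maximum signal they were in the top 4.67% and 8.49%, and by signal per base in the top 50.5% and 81.1%. The processed pseudogene Gm11617 lies inside both. H3K27me3 lay over the same stretch in MT, chr11:101304669-101311525 (top 43% by total signal), and in GAS, chr11:101306254-101308664 (top 49.7%). GAS also had H3K27ac there, chr11:101308409-101311292 (top 80%). No ADIPO peak of either hPTM fell in the stretch.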
